A study of Mus musculus with 2 samples.

Results

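Glycolysis and hypoxia genes are described here as a set of 32, chosen by name from the 32245 gene symbols of the count tables. They comprise 20 glycolytic enzymes, regulators and transporters and 12 hypoxia genes. The rule names genes and sets no measured value, but the members were chosen with earlier results of these data known. The set is therefore not independent of the values described below.

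Glycolysis turns glucose into pyruvate in the cytosol, and cells that keep running it in the presence of oxygen pass much of the pyruvate on to lactate. Low oxygen stabilises the protein HIF-1alpha, a transcription factor that raises the mRNA of most glycolytic enzymes and of a separate set of genes for autophagy of mitochondria, protein folding and blood vessel growth. Hif1a, the gene for HIF-1alpha itself, is regulated mainly at the level of its protein, so its mRNA is no measure of its activity. In tumours, activated T cells, macrophages and the tumour cells all draw on glycolysis, and parts of the tissue are short of oxygen.

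The data are 2 droplet single-cell RNA-seq libraries, Control from mice on plain diet and Sitagliptin from mice whose diet held that drug, which blocks the peptidase DPP4. All mice were WT and bore MC38-OVA tumours, from a murine colorectal tumour line expressing ovalbumin so that T cells have a defined target. CD45+ cells (CD45, encoded by Ptprc, marks leukocytes) were enriched from the tumours with magnetic beads. The sources used here give neither age, nor dose, nor how many mice were pooled. Since each diet has a single library, the spread between mice is unknown and no test between the diets was made. Each ratio below therefore compares 2 libraries, and its 95% interval covers counting error only.

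The control library held 8694 barcodes and 64139749 UMIs (unique molecular identifiers, which count captured mRNA molecules), and the sitagliptin library held 9766 barcodes and 76788699 UMIs. The 2 libraries shared 132 barcode sequences. Barcodes were assigned to cell classes from UMIs of marker genes, and levels are given as UMIs per 1000000 UMIs of the class (CPM). The control and sitagliptin libraries gave 224 and 375 T cells, among them 93 and 184 CD8 T cells that were not cycling and 81 and 89 cycling T cells. They gave 75 and 119 NK cells, 52 and 52 mature migratory dendritic cells with Ccr7, 794 and 1091 monocytes and 2848 and 3673 macrophages. Another 1076 and 689 barcodes, called Ptprc-low, had few UMIs of leukocyte genes such as Ptprc and at least 3 UMIs of 8 fibroblast genes, Sparc and Dcn among them. Fewer cDC2 (27 and 48), cDC1 (13 and 24) and plasmacytoid dendritic cells (9 and 24) are described by their levels only. No class was given to 2808 and 2947 barcodes, and 750 and 708 barcodes that carried RNA of both T cells and macrophages were left out, as were 18 and 16 neutrophils.

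Cd3e stood at 287 CPM in control T cells and 462 CPM in sitagliptin T cells, against 3.18 and 5.58 CPM in NK cells, and C1qa at 1809.7 and 1439.6 CPM in macrophages, against 9.49 and 11.5 CPM in T cells. Both genes were among the markers that called these classes, so the contrasts follow from the calls and do not check the labels. The label of tumour-like cells was borne out only in part. In the Ptprc-low barcodes the epithelial gene Epcam had 0 UMIs in both libraries and the keratin gene Krt8 had 1 UMI in each. Ptprc was at 8.48 and 12.1 CPM there, and the matrix genes Sparc (526 and 486 CPM) and Dcn (194 and 229 CPM) were high. These 3 levels follow from how the class was called and do not tell what the cells are. Msln, another of the 14 tumour markers, was at 52.7 and 40.2 CPM there, against 1.04 and 0.789 CPM in macrophages and 0 UMIs in T cells of both libraries. The 14 markers together did not set the class apart from T and NK cells. They summed to 54.9 and 42.7 CPM in it, 51.7 and 49.8 CPM in T cells, 85.8 and 67.0 CPM in NK cells and 20.6 and 25.4 CPM in macrophages. Since the keratins were near absent, the barcodes of this class are called Ptprc-low cells here and not tumour cells.

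The glycolytic genes were spread unevenly over the cell classes. Highest and lowest refer to the 7 compared classes (CD8 T, cycling T, NK, mature dendritic, monocyte, macrophage, Ptprc-low), with macrophages taken whole, and some macrophage groups described further below exceed them. Slc2a3, the gene for the high-affinity transporter GLUT3, stood at 93.4 CPM in control and 76.2 CPM in sitagliptin CD8 T cells, its highest level. In NK cells it was at 44.5 and 40.9 CPM, and in macrophages at 2.38 and 1.61 CPM. After each barcode was thinned to 2000 UMIs, 8.93% (95% exact interval 5.54 to 13.5) of control and 10.1% (7.27 to 13.6) of sitagliptin T cells held a Slc2a3 UMI, against 0.351% and 0.517% of macrophages and 0.0929% and 0.145% of Ptprc-low cells. Without thinning the T cell shares were 18.3% and 18.9%, at median depths of 3551 and 3509 UMIs. Slc2a1, the gene for the basal transporter GLUT1, had the opposite distribution. It was highest in monocytes, at 101 and 85.5 CPM, and lowest in NK cells, at 15.9 and 20.5 CPM, and in CD8 T cells it stood at 40.5 and 33.7 CPM.

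The hexokinases, which trap glucose in the cell as glucose-6-phosphate, were divided in a similar way. Hk1 was spread over all classes, from 36.0 CPM in control mature dendritic cells to 122 CPM in control cycling T cells. Hk3 was a gene of myeloid cells: 70.4 and 60.7 CPM in macrophages and 57.0 and 59.2 CPM in monocytes, against 0.745 and 0.857 CPM in Ptprc-low cells. Hk2, the inducible form, was highest of the 7 compared classes in monocytes (56.1 and 90.7 CPM), and lowest in control in CD8 T cells (12.5 CPM).

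The genes that set the pace of the next committed step also differed between classes. Pfkp, the platelet form of phosphofructokinase, reached 214 and 192 CPM in monocytes and only 40.5 and 38.1 CPM in Ptprc-low cells. The small cDC1 class went higher, with 372 CPM in the control library (exact Poisson 95% interval 236 to 558) and 569 CPM in the sitagliptin library (466 to 687). The cDC2 stood at 326 and 381 CPM. The liver form, Pfkl, was highest in Ptprc-low cells, at 57.6 and 48.1 CPM. Pfkfb3 makes fructose-2,6-bisphosphate, the activator of phosphofructokinase. It was at 200 CPM (148 to 264) in control and 181 CPM (138 to 235) in sitagliptin mature migratory dendritic cells, and at 3.90 and 5.08 CPM in Ptprc-low cells. Pfkfb4, its relative, was low, with its highest level in monocytes (15.5 and 19.5 CPM).

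From aldolase down to lactate, the enzymes are abundant in every cell, and here the Ptprc-low cells and macrophages led. Tpi1 was at 528 and 460.4 CPM in Ptprc-low cells, and in no other class of the 7 above 364 CPM. Ldha, which makes lactate, was at 1313 and 1215 CPM there, against 552 and 444 CPM in mature migratory dendritic cells, the lowest of the 7. Gapdh (2184 and 2161 CPM), Pgk1 (838 and 725 CPM) and Pkm (841 and 711 CPM) were also highest in Ptprc-low cells. Eno1 differed little between monocytes (2697 and 2452 CPM), Ptprc-low cells (2636 and 2488 CPM) and macrophages (2499 and 2388 CPM), and the order of the first 2 was not the same in both libraries. Aldoa (1219 and 916 CPM), Gpi1 (270 and 230.2 CPM) and Pgam1 (437 and 374 CPM) peaked in macrophages, although Pgam1 stood at 429 and 373 CPM in Ptprc-low cells, within counting error. Slc16a3, the lactate exporter MCT4, was highest in monocytes, at 134 and 116 CPM. Pdk1, the kinase that holds pyruvate back from mitochondria, was low throughout, at 46.7 and 36.6 CPM in CD8 T cells and 37.5 and 44.9 CPM in Ptprc-low cells.

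**Figure D1:**
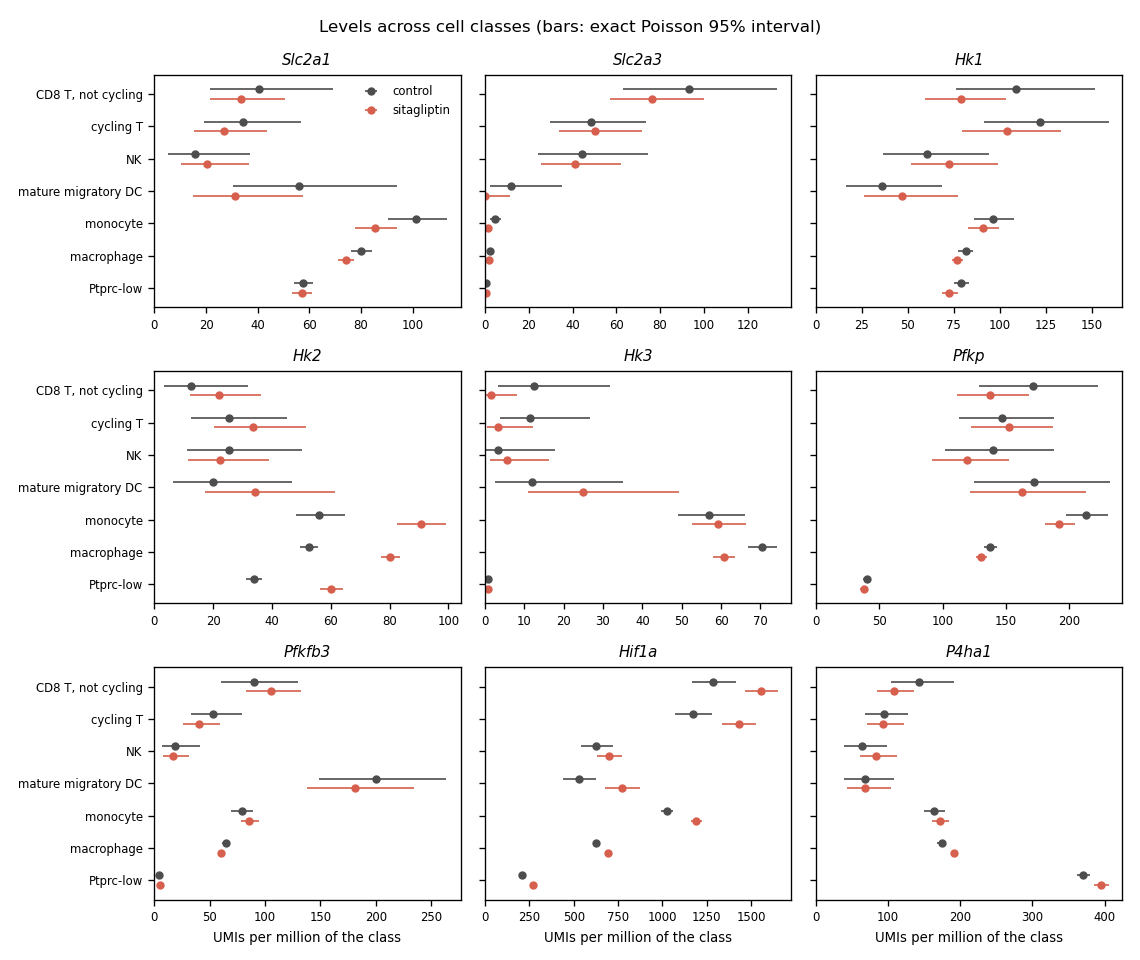
Levels of 9 genes (x axis, CPM of the class) in 7 cell classes (y axis) of the control library (grey) and the sitagliptin library (red), with points for the value of each library and bars for the exact Poisson 95% interval. Slc2a3 is seen in T and NK cells, Hk3 in monocytes and macrophages, Pfkfb3 at its highest in mature migratory dendritic cells and P4ha1 in Ptprc-low cells, in both libraries.

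Among the hypoxia genes, Hif1a itself did not lie where most of the others did. Hif1a was highest in CD8 T cells, at 1286 CPM (1165 to 1416) in control and 1557 CPM (1465 to 1654) in sitagliptin, and lowest in Ptprc-low cells, at 211 and 272 CPM. Bnip3, which marks mitochondria for autophagy, was instead highest in Ptprc-low cells (395 and 479.9 CPM), followed by macrophages (325 and 427 CPM as a whole, and 550.4 and 755 CPM in the lipid-associated group), and stood at 181 and 123 CPM in CD8 T cells. P4ha1, a subunit of the collagen prolyl hydroxylase, was at 370.3 and 396 CPM in Ptprc-low cells and at no more than 192 CPM in any other of the 7 classes. Mif, a secreted cytokine, was also highest there (1502 and 1358 CPM), as were the mitophagy receptor Bnip3l (162 and 143 CPM) and Ankrd37 (40.7 and 30.1 CPM). Monocytes led for Vegfa, the vessel growth factor (597 and 541 CPM), for the disulfide-forming oxidase Ero1l (578 and 513 CPM) and for Egln3, a hydroxylase that marks HIF for destruction (97.6 and 88.2 CPM). Ndrg1, a stress-induced gene, was about as high in mature migratory dendritic cells (180 and 150.2 CPM) as in Ptprc-low cells (159.7 and 150.2 CPM). Higd1a, a small mitochondrial protein gene, was at 280.1 and 201 CPM in cycling T cells and 228 and 221 CPM in Ptprc-low cells. Adm, the gene for the vasodilator adrenomedullin, was close to absent: 0 UMIs in T cells of both libraries, which allows up to 3.16 and 1.82 CPM, and 1.44 and 2.63 CPM in macrophages. Of the 20 enzyme and transporter genes 18, and of the 12 hypoxia genes 9, had their highest level in the same of the 7 classes in both libraries. For enzymes with many near-identical processed copies in the genome, such as Gapdh and Ldha, the treatment of reads that fit several places is unknown, so these levels are uncertain.

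Between the diets, members were past the threshold more often in T cells than over all genes. The threshold was a level at least 20% lower (a ratio of 0.8 or less) or at least 25% higher in the sitagliptin library. Of the 29 genes measured in T cells (at least 20 UMIs over both libraries), 15 were lower by that much and 1 was higher, Hk2, with 19 and 46 UMIs. Over all 8478 genes measured in T cells, 24.3% were lower and 16.7% were higher. The median log2 ratio was -0.32 for the enzymes and transporters and -0.40 for the hypoxia genes, against -0.06 for all genes. Genes with at least 100 UMIs, where counting error is smaller, gave 11 of 22 lower and 0 higher, against a background of 17.2% and 10.2%.

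In CD8 T cells that were not cycling, 18 of 26 measured genes were lower past the threshold and 0 were higher, against 28.2% and 20.6% of all genes, and with at least 100 UMIs 13 of 18 were lower and 0 higher, against 19.7% and 13.2%. The median log2 ratio was -0.36 for enzymes and transporters and -0.59 for hypoxia genes, against -0.07 for all genes. Pgk1, the first ATP-forming enzyme of glycolysis, stood at 517 CPM in control and 284 CPM in sitagliptin, a ratio of 0.55 (95% interval 0.445 to 0.681). Aldoa stood at 759.6 and 423 CPM, a ratio of 0.557 (0.468 to 0.664). Ero1l stood at 271 and 155 CPM, a ratio of 0.573 (0.428 to 0.770). The intervals of these 3 genes lie below 1. Mif (984 and 639 CPM, ratio 0.649) and Bnip3 (181 and 123 CPM, ratio 0.682) followed. At the other end, among genes with at least 100 UMIs, Hif1a was higher in the sitagliptin cells (ratio 1.21, 1.08 to 1.36), and Pfkfb3 (90.3 and 106 CPM, ratio 1.17, 0.750 to 1.87) and Pgam1 (140.1 and 133 CPM, ratio 0.952) were close to even. The 2 next highest ratios were those of Pfkp (171 and 138 CPM, 0.804) and Gpi1 (181 and 145 CPM, 0.803). Slc2a3, the lymphocyte transporter, had a ratio of 0.816 (0.511 to 1.32), which counting error does not tell from 1. Stricter T cell markers left 3 genes higher past the threshold in place of 0.

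Over all T cells, the lowest ratios among genes with at least 100 UMIs were those of Aldoa at 718 and 375 CPM (ratio 0.522), Ndrg1 at 83.3 and 52.9 CPM (0.635), Pgk1 at 465 and 298 CPM (0.640), Mif at 966 and 649.6 CPM (0.673) and Gpi1 at 168 and 114 CPM (0.682). The highest was that of Hif1a, at 1186 and 1442 CPM (ratio 1.22, 1.13 to 1.31). After it came Pfkfb3 (63.3 and 65.0 CPM, 1.03), Slc2a3 (56.9 and 55.3 CPM, 0.971), Bnip3 (136 and 125 CPM, 0.916) and P4ha1 (107 and 95.4 CPM, 0.887). Counted per cell at equal depth, the median T cell held 9.5 UMIs of the 20 enzymes and transporters in control and 7 in sitagliptin, and 5 UMIs of the hypoxia genes in both. A UMI of Aldoa was found in 62.5% (55.8 to 68.9) of control and 41.3% (36.3 to 46.5) of sitagliptin T cells at that depth, and in 74.1% and 56.8% without thinning.

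Cycling T cells had 12 of 27 genes lower past the threshold and 3 higher, against 24.8% and 20.9% of all genes. Aldoa was at 748 and 373 CPM there (ratio 0.499, 0.419 to 0.593), Higd1a at 280.1 and 201 CPM (0.717), Pkm at 393 and 283 CPM (0.720), Ero1l at 193 and 127 CPM (0.659) and Gpi1 at 156 and 97.1 CPM (0.622). Highest were Bnip3 (108 and 137 CPM, 1.27, interval 0.878 to 1.86), Hif1a (1173 and 1429 CPM, 1.22), Pfkp (147 and 152 CPM, 1.04), Ldha (806 and 779.7 CPM, 0.968) and Eno1 (1653 and 1499 CPM, 0.907). Bnip3 lay on opposite sides of 1 in cycling T cells and in CD8 T cells that were not cycling, and that difference was not tested. With barcodes thinned to 2000 UMIs, 6 genes were lower past the threshold in cycling T cells in place of 12.

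Markers of other cell types and of the cell cycle were read in the same T cells. A list of 20 cell cycle genes had a median log2 ratio of -0.34 in all T cells, with 11 of 20 lower past the threshold, but 0.04 in CD8 T cells that were not cycling. The summed level of 8 abundant macrophage genes was 3717 CPM in control and 2898 CPM in sitagliptin T cells, with 4 of the 8 higher, 4 lower and none at 0, and it was 3577 and 2771 CPM in the CD8 T cells, where 6 of the 8 were higher and 2 lower. The 10 defining macrophage markers went the other way, from 106 to 115 CPM in T cells and from 84.1 to 101 CPM in CD8 T cells, with 2 and 1 of them at 0 in the CD8 T cells. The 10 NK markers summed to 1575 and 883 CPM in the CD8 T cells, with 4 and 3 of them at 0, and to 914 and 702 CPM in all T cells. The part of these in the result was not tested. When cycling, CD8 and other T cells were given the same weights in both libraries, the medians in T cells were -0.29 for enzymes and transporters and -0.37 for hypoxia genes.

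NK cells had 10 of 23 genes lower past the threshold and 2 higher, against 25.1% and 23.8% of all genes. The enzymes and transporters had a median log2 ratio of -0.26 and the hypoxia genes one of -0.02, against -0.03 for all genes. Ero1l was at 346 and 156 CPM (ratio 0.451, 0.335 to 0.605), Pgk1 at 470.3 and 260.4 CPM (0.554, 0.436 to 0.702) and Aldoa at 575 and 399.9 CPM (0.695). Gapdh (1036 and 746 CPM, 0.720) and Mif (826 and 627 CPM, 0.759) were lower as well. Hif1a (626 and 697 CPM, 1.11), Vegfa (295 and 314 CPM, 1.06), Higd1a (172 and 169 CPM, 0.986), Pgam1 (191 and 166 CPM, 0.868) and Pfkp (139.8 and 119 CPM, 0.851) had the highest ratios, and each of those intervals includes 1. The 10 cycling markers summed to 804 and 454 CPM in NK cells, all 10 lower in sitagliptin and none at 0, and the part of this in the result was not tested. The median of the enzymes depended on how NK cells were called: under the marker thresholds tried first, which gave 53 and 69 NK cells, it was -0.69.

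Mature migratory dendritic cells were few and had 7 of 24 genes lower and 3 higher, against 28.2% and 22.2% of all genes, a share near the background. Ero1l (332 and 138 CPM, ratio 0.415, 0.281 to 0.605) and Vegfa (332 and 175 CPM, 0.528, 0.369 to 0.750) were the lowest of the genes with at least 100 UMIs, and Hif1a (528 and 769.5 CPM, 1.46, 1.17 to 1.82) the highest. Between them lay Aldoa (0.782), Ldha (0.805), Mif (0.812), Higd1a (1.11), Eno1 (1.05), Pgk1 (1.04) and Pkm (1.02). Pfkfb3, which peaked in these cells, had a ratio of 0.907 (0.611 to 1.35). Some of these values moved far with the processing. Over 7 alternatives the log2 ratio ran from -1.27 to -0.17 for Ero1l and from -0.54 to 1.32 for Pfkfb3. It ran from -1.05 to -0.65 for Vegfa and from 0.38 to 0.81 for Hif1a. The 10 cycling markers summed to 79.99 and 363 CPM here, with 9 of 10 higher and 1 at 0 in control. The 7 neutrophil markers summed to 184 and 31.3 CPM, with 3 lower, 0 higher and 4 and 5 at 0. Single myeloid genes, looked at after the values were seen, also differed, with Lyz2 at 720 and 282 CPM, Spp1 at 344 and 166 CPM and Cd209a at 2 and 42 UMIs. Lyz2 and Spp1 belong to the 8 abundant macrophage genes, which summed to 20597.5 and 22497.5 CPM, with 3 higher, 5 lower and none at 0. The 10 macrophage markers summed to 508 and 407 CPM, with 5 higher, 5 lower and 1 at 0 in control. The part of these was not tested. Under the marker thresholds tried first, which gave 77 and 80 of these cells, 11 members were lower past the threshold.

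**Figure D2:**
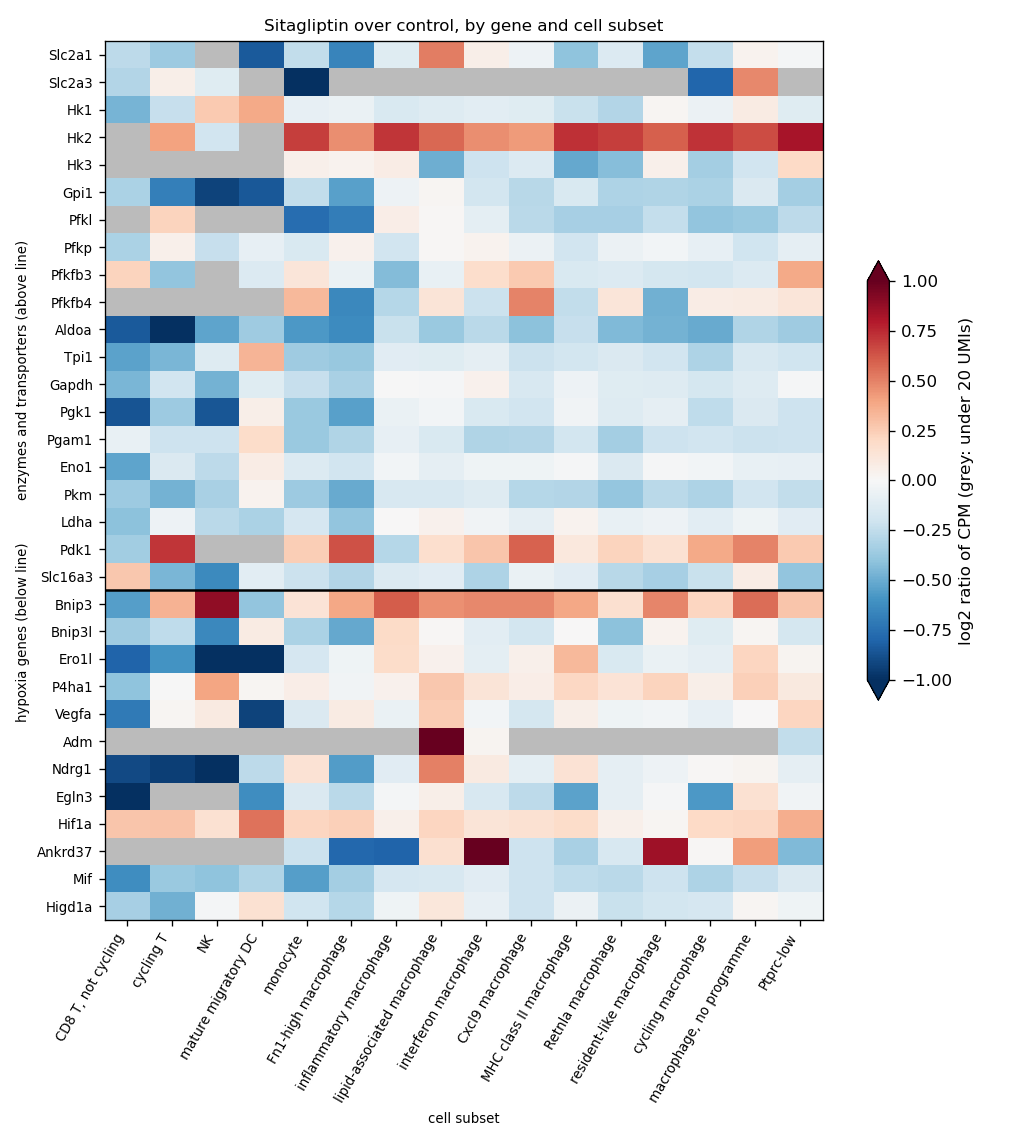
Log2 ratio of the sitagliptin over the control level (colour, red higher and blue lower in sitagliptin, limited to -1 and 1) for 32 genes (rows, enzymes and transporters above the line, hypoxia genes below it) in 16 cell subsets that share no barcode (columns), with grey where a gene had under 20 UMIs. The rows of Aldoa and Mif are blue throughout, that of Hif1a red throughout, and that of Hk2 red in 13 of 14 columns.

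In monocytes, in macrophages as a whole and in Ptprc-low cells, the share of members lower past the threshold (25.8%, 6.25% and 12.9%) lay near or below the background. Monocytes had 8 of 31 genes lower and 2 higher, against 22% and 10% of all genes, with medians of -0.23 for the enzymes and transporters and -0.15 for the hypoxia genes against -0.09 for all genes. Pfkl was lowest there, at 45.6 and 26.9 CPM (ratio 0.589, 0.463 to 0.749), followed by Aldoa (952 and 639.9 CPM, 0.672), Mif (928 and 635 CPM, 0.684), Pgam1 (341 and 264 CPM, 0.774) and Pgk1 (651 and 504 CPM, 0.774). Hk2 was highest, at 56.1 and 90.7 CPM (ratio 1.62, 1.36 to 1.94). Pfkfb4 (1.26, 0.883 to 1.80), Pdk1 (25.3 and 30.0 CPM, 1.18), Hif1a (1025 and 1192 CPM, 1.16) and Ndrg1 (96.3 and 106 CPM, 1.10) came next. The Pfkfb4 direction reversed when barcodes were thinned to 2000 UMIs (log2 ratio 0.33 before and -0.25 after). In monocytes the 7 neutrophil markers summed to 282 and 216 CPM, with 6 lower, 0 higher and 1 and 2 at 0. The 8 abundant macrophage genes summed to 17748 and 14842 CPM, 4 of them lower, and the 10 cycling markers to 100.4 and 130.1 CPM, 8 of them higher, none at 0 in either list. Their part was not tested.

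In macrophages, the largest class, 2 of 32 genes were lower past the threshold and 3 were higher, against 13.2% and 9.79% of all genes. The intervals are narrow, since many UMIs were counted. At equal depth the UMIs of enzymes and transporters per macrophage had a variance over mean of 4.12 in control and 4.42 in sitagliptin. That is wider than Poisson counting, so the intervals can be too narrow. Of the enzymes and transporters 18 of 20 lay below 1. Their median log2 ratio was -0.15, against -0.06 for all genes and 0.00 for the hypoxia genes. Aldoa stood at 1219 and 916 CPM (ratio 0.752, 0.739 to 0.765), and Pfkl (46.8 and 38.5 CPM, 0.822), Pkm (749 and 617 CPM, 0.824), Mif (1107 and 931 CPM, 0.841) and Gpi1 (0.852) were the next lowest. Hk2 went the other way, at 52.5 and 80.3 CPM (ratio 1.53, 1.42 to 1.65), and so did Bnip3, at 325 and 427 CPM (1.31, 1.28 to 1.35). Adm (ratio 1.83, 1.18 to 2.90, on 29 and 80 UMIs), Pdk1 (35.4 and 44.0 CPM, 1.24) and Hif1a (626 and 694 CPM, 1.11) completed the high end. A Hk2 UMI was found in 10.4% (9.26 to 11.5) of control and 15.3% (14.2 to 16.5) of sitagliptin macrophages at equal depth, and in 27.2% and 39.5% at median depths of 6308.5 and 7423 UMIs. T cells, whose Hk2 level is low, gave 3.12% and 3.73% at equal depth. The 8 abundant macrophage genes summed to 30504 and 25434 CPM in macrophages, with 1 higher, 7 lower and none at 0, and the 10 cycling markers to 697 and 628 CPM, all 10 lower. Their part was not tested.

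Ptprc-low cells had 4 of 31 genes lower past the threshold and 3 higher, against 11.1% and 10% of all genes. Ankrd37 (ratio 0.738, 0.655 to 0.831), Slc16a3 (37.1 and 28.2 CPM, 0.760), Aldoa (879 and 687 CPM, 0.781), Gpi1 (166 and 131 CPM, 0.790) and Pfkl (0.834) were lowest. Hk2 was again highest, at 33.9 and 60.1 CPM (ratio 1.77, 1.60 to 1.97), then Pfkfb3 (3.90 and 5.08 CPM, ratio 1.30, 0.928 to 1.83), Hif1a (211 and 272 CPM, ratio 1.29), Bnip3 (395 and 479.9 CPM, ratio 1.21) and Pdk1 (37.5 and 44.9 CPM). Median depth in this class was 15587.5 UMIs in control and 21050 in sitagliptin, and all 8 abundant macrophage genes were higher in the sitagliptin cells (897 and 964 CPM summed), whose part was not tested.

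**Figure D3:**
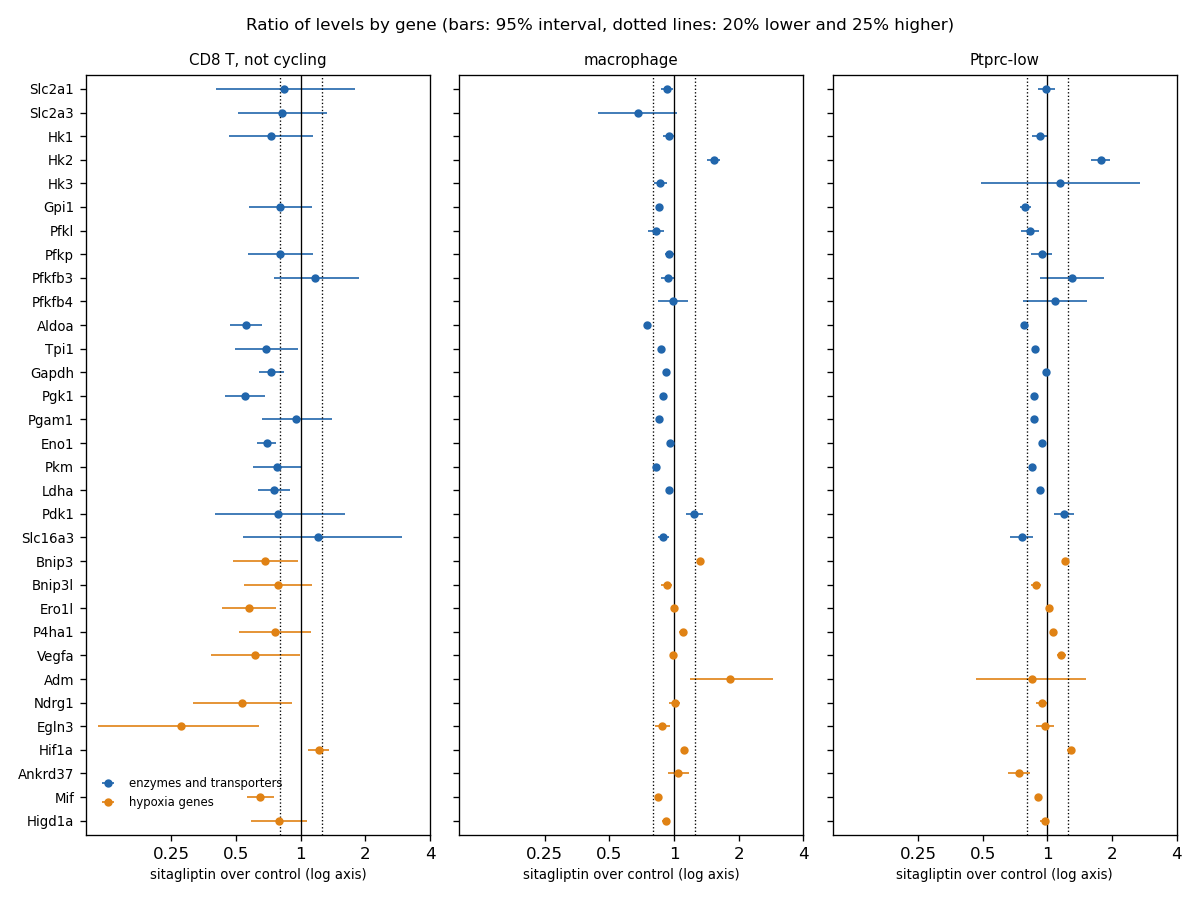
Ratio of the sitagliptin over the control level (x axis, log scale) of each gene (y axis) in CD8 T cells that were not cycling, macrophages and Ptprc-low cells, with blue points for enzymes and transporters, orange points for hypoxia genes, bars for the 95% interval from counting error and dotted lines at the threshold. In CD8 T cells 18 of 26 points lie at or left of the lower dotted line, and in macrophages 2 of 32 do.

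Some genes kept a direction across cell types. Over the 16 subsets without overlap, Aldoa and Mif were lower in all 16 and Hif1a was higher in all 16. Among the 3286 genes measured in all 16, 4.93% were lower in each and 3.07% were higher in each, and all subsets come from the same 2 libraries, so they are not independent readings. Aldoa and Mif also kept this under the 3 other scalings tried, and Hif1a did under 2 of them, being higher in 15 of 16 when each barcode counted the same. Hk2 was higher in 13 of the 14 subsets where it was measured, NK cells being the exception, under every scaling tried. Of 668 genes measured in 14 subsets, 1.65% were higher in at least 13. Bnip3 was higher in 14 of 16, the exceptions being CD8 T cells and mature migratory dendritic cells, and 8.58% of the 3286 genes were higher in at least 14. Pgk1, Pgam1, Tpi1, Pkm, Gpi1, Gapdh and Eno1 were each lower in 15 of 16, as 12.4% of the 3286 genes were in at least 15, but with median-of-ratios scaling Eno1 was lower in only 9, Gapdh in 12 and Pgk1 in 13. Aldoa is listed under 2 gene IDs, and ENSMUSG00000030695 carried nearly all of it, with 65409 and 59708 UMIs against 35 and 28 for the other.

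HIF binds DNA at a short core motif, ACGTG being its usual form, and the promoters were searched for it. Promoters of 29 members were found in RefSeq (GRCm38.p6, the build of that table, the count tables naming none), and Slc2a3, Bnip3l and Ndrg1 were not. On either strand, ACGTG occurred in the 250 bases before the start of 14 of 29 members (48.3%), in 8 of 19 enzymes and transporters and 6 of 10 hypoxia genes, against 16.6% of 27025 RefSeq promoters. It overlaps the E-box CACGTG, which holds it on both strands and was counted 2 times. The 27025 promoters were matched to the members neither in expression nor in base composition, so the 2 shares are not a test. A match describes letters and not a bound site. The 5 promoters below were picked after values and matches were seen, since they pair genes with and without the motif with both directions: Hk2 (2 matches) and Bnip3 (2) were mostly higher in the sitagliptin library, Pgk1 (2), Ldha (5) and Mif (0) mostly lower. Each is written 5′ to 3′ on the gene's strand, ends at the base before the start, and has the motif in capitals.
Hk2, chr6:82774455-82774704, minus strand: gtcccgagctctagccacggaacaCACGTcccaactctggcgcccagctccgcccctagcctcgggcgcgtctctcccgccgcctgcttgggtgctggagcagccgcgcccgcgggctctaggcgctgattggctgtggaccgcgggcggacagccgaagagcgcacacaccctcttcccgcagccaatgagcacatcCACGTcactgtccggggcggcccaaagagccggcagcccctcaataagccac
Bnip3, chr7:138909507-138909756, minus strand: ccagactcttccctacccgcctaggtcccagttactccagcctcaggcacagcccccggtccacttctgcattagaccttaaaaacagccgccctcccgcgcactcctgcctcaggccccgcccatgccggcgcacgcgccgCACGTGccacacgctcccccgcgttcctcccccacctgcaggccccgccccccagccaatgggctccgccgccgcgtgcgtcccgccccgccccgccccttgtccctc
Pgk1, chrX:106186850-106187099, plus strand: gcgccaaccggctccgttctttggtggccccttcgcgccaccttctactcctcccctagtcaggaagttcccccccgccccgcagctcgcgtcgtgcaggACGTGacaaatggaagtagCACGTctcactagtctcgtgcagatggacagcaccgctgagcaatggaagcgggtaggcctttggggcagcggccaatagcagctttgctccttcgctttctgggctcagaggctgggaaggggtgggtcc
Ldha, chr7:46845554-46845803, plus strand: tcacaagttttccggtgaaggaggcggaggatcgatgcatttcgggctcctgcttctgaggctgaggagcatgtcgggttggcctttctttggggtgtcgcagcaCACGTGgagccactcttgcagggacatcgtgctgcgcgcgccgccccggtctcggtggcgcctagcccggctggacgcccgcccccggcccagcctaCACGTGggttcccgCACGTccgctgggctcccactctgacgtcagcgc
Mif, chr10:75860278-75860527, minus strand: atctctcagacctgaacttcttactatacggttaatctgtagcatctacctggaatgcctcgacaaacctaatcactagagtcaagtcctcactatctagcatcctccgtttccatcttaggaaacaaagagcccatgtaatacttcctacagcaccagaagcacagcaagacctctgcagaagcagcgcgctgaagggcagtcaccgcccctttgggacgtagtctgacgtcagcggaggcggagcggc

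Macrophages were divided further by marker genes into 10 groups, called programmes, of which 1 holds the cells without a programme. Across them the hypoxia genes spread more widely than the enzymes. The median fold between the highest and the lowest programme was 2.16 in control and 2.47 in sitagliptin for the hypoxia genes, and 1.59 and 1.66 for the enzymes and transporters. In the control library 5 of 12 hypoxia genes were highest in lipid-associated macrophages (marked by genes such as Gpnmb) and 5 in inflammatory macrophages (marked by genes such as Cxcl3), and in the sitagliptin library 9 and 3 were. Egln3 ranged from 33.1 CPM in resident-like to 101 CPM in inflammatory macrophages in control, and from 24.3 CPM in cycling to 100.4 CPM in lipid-associated macrophages in sitagliptin. Ero1l reached 695 and 716 CPM in lipid-associated macrophages and was lowest in cycling macrophages, at 253 and 237 CPM. Vegfa was highest in inflammatory macrophages (690.3 and 660.4 CPM) and Hk3 in macrophages marked by Cxcl9 (128 and 116 CPM). Programmes are ranges of a score and not cell types: 795 of 2848 and 960 of 3673 macrophages lay within 0.2 of the score at which a programme is given.

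Between the diets, the macrophage groups did not all lean the same way. In the lipid-associated, 11 of 12 hypoxia genes had a ratio above 1, with a median log2 ratio of 0.19 against -0.05 for all genes. Of these hypoxia genes 3 were higher past the threshold. Over all members 5 of 31 (16.1%) were higher and 2 lower past it, against 14.5% and 21.3% of all genes, so the share higher was near the background. Macrophages without a programme were similar, with 10 of 11 hypoxia genes above 1 and a median over all members of 0.02, as in the lipid-associated. In the latter, Bnip3 stood at 550.4 and 755 CPM (ratio 1.37, 1.27 to 1.48), Ndrg1 at 109 and 154 CPM (1.41, 1.19 to 1.68) and Slc2a1 at 102 and 146 CPM (1.43, 1.19 to 1.71). Adm, singled out after its values were seen, had 5 and 33 UMIs there (2.55 and 14.5 CPM, ratio 5.68, 2.20 to 18.6). The group that scored highest on the 6 monocyte markers is called Fn1-high, after the marker that stood out in it (4412 and 4089 CPM). Plac8 (116 and 235 CPM) and Ly6c2 (105 and 243 CPM) did not mark it, being at 294 and 305 CPM and 222 and 350.5 CPM in interferon macrophages. It had 14 of 30 members lower and 3 higher past the threshold, against 22.6% and 17.6%, with Slc2a1 at 119 and 75.5 CPM (ratio 0.634, 0.484 to 0.831). In the lipid-associated group median depth was 6345 UMIs in control and 8397 in sitagliptin. There the 10 cycling markers summed to 111 and 51.7 CPM, with 9 lower, and the 8 abundant macrophage genes to 36724 and 28761 CPM, with 7 lower. In the Fn1-high group the latter summed to 29827 and 24171 CPM, also with 7 lower, and no gene of these lists was at 0 but 1 cycling marker in the Fn1-high control cells. Between the libraries Plac8 and Ly6c2 were higher there in sitagliptin, and Spp1 was at 7035 and 3835 CPM. Their part was not tested. Whether these programmes differ from each other beyond the spread between mice cannot be tested with 1 library per group.

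**Figure D4:**
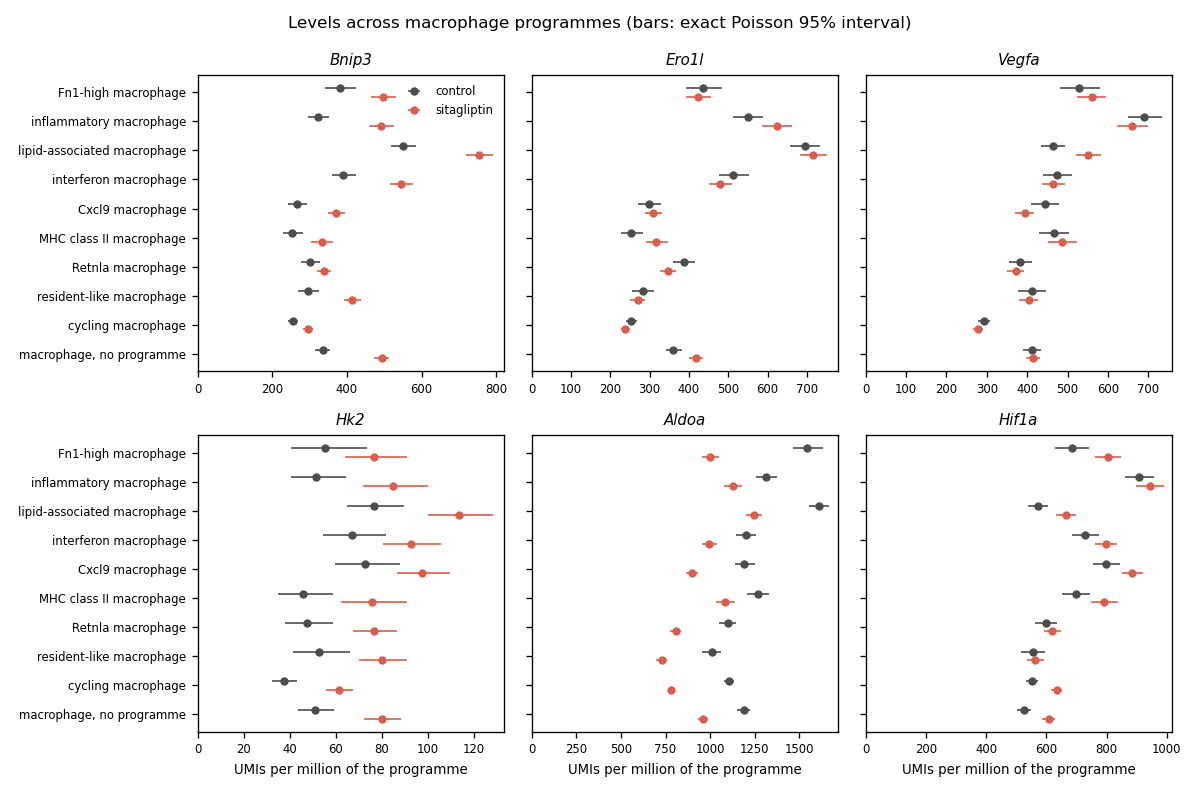
Levels of 6 genes (x axis, CPM of the programme) in 10 macrophage programmes (y axis) of the control library (grey) and the sitagliptin library (red), with bars for the exact Poisson 95% interval. Bnip3 and Ero1l are highest in lipid-associated and Vegfa and Hif1a in inflammatory macrophages in both libraries, and Aldoa is lower in the sitagliptin library in each of the 10.

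Within the macrophages, most members were higher in the cells that held Bnip3. This split was chosen after the data were seen and is a description. At 2000 UMIs per cell, 1137 control and 1661 sitagliptin macrophages held a Bnip3 UMI, and 1711 and 2012 did not. Egln3 was 2.76-fold higher in the control cells with Bnip3 (86.3 against 31.3 CPM) and 2.69-fold higher in the sitagliptin cells (76.8 against 28.6 CPM). For Ero1l the folds were 2.29 and 2.51, for Ndrg1 1.68 and 2.08, and for Ankrd37 1.76 and 3.11. The medians of both sets were close, at 1.40 and 1.45 over 10 hypoxia genes and 1.33 and 1.40 over 18 enzymes and transporters, with Slc2a1 at 1.57 and 1.86 and Hk3 at 0.944 and 0.920. For Hif1a mRNA the ratios were 1.02 (0.959 to 1.09) and 0.939 (0.889 to 0.992), and the median over all genes was 0.977 in the control library.

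**Figure D5:**
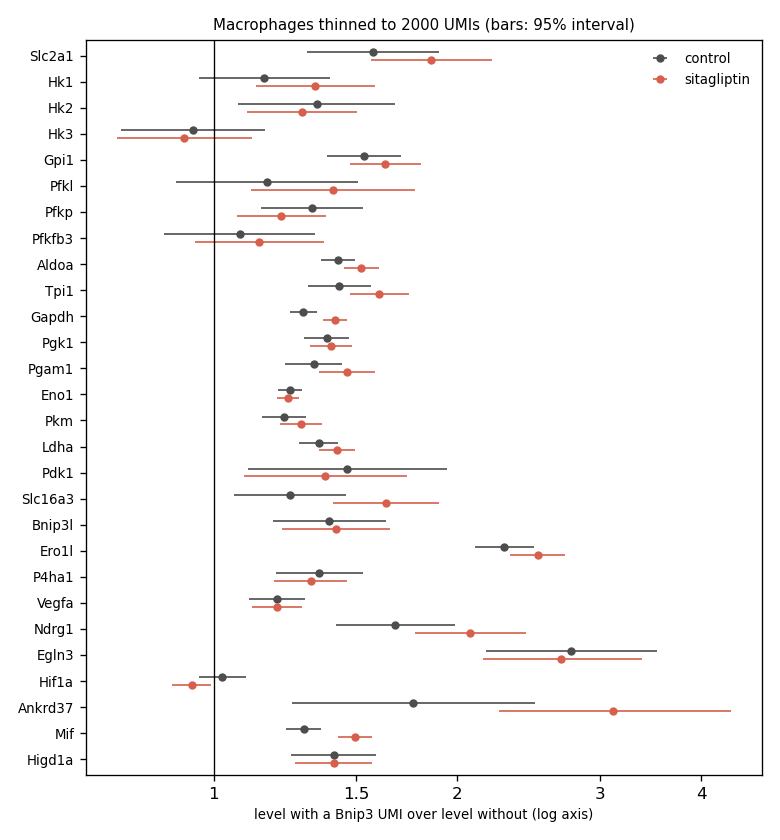
Ratio of the level in macrophages with a Bnip3 UMI over that in macrophages without (x axis, log scale) for each gene with at least 100 UMIs (y axis), in the control library (grey) and the sitagliptin library (red), after thinning to 2000 UMIs per cell, with bars for the 95% interval. Egln3 and Ero1l lie above 2 in both libraries, and Hk3 and Hif1a lie near 1.

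Lists of further genes of these pathways were read in the same way, against the shares of all genes given above (24.3% lower and 16.7% higher in T cells, 13.2% and 9.79% in macrophages). In T cells, 6 of 12 measured further glycolysis genes were lower past the threshold and 3 higher, their median log2 ratio being -0.24, and the phosphatase gene Pgp was at 58.0 and 31.6 CPM. Of 19 measured other hypoxia genes 6 were lower and 2 higher, with Hilpda, a lipid droplet protein gene, at 132 and 93.0 CPM (ratio 0.705) and Rora at 226 and 268 CPM (1.19). In macrophages, 4 of 20 other glycolysis genes were lower and 0 higher, with Pgm2, a phosphoglucomutase, at 35.1 and 26.1 CPM and Pgp at 61.0 and 47.0 CPM. Of 26 other hypoxia genes 2 were lower and 0 higher, Plod2, a collagen lysyl hydroxylase, at 8.39 and 4.74 CPM and the carbonic anhydrase Car9 at 5.61 and 4.41 CPM. In Ptprc-low cells Plod2 lay on the other side, at 206 and 258 CPM. The nuclear genes of the respiratory chain, the other route for pyruvate, had 3 of 16 lower and 0 higher in T cells (median -0.18) and 1 of 16 lower and 0 higher in macrophages (median -0.11).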

How the data were processed

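The authors deposited raw UMI counts per gene and barcode for each library, per the labels' protocols made with the SeekOne DD 5' kit. Aligner, build and gene annotation were not given in the sources used here. Per barcode, the lowest total was 2001 UMIs. Counts were read with scanpy 1.11.5 and scipy 1.17.1 under Python 3.11.15, and genes sharing a symbol were summed.

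Groups were taken from the treatment label. Classes were called from marker UMIs, with limits per 10000 UMIs on C1q, on leukocyte genes and on macrophage markers in lymphocytes. These limits replaced a first set after member values had been seen. The rules for NK cells, for mixed barcodes and for mature migratory dendritic cells, which first accepted Fscn1 beside Ccr7, changed with them. Values under the first set are given as an alternative. UMIs were summed per class and library, with exact Poisson intervals for levels and exact conditional binomial intervals for ratios (95%). The ratio intervals were checked on Poisson counts simulated from the T cells. They assume such counts, so the check does not cover spread between cells. At equal depth the summed UMIs of each gene set per cell varied more than Poisson counting in every compared class, so intervals can be too narrow. Classes needed 50 barcodes in each library, and genes 20 UMIs over both for counts and 100 to be named. Named genes are the 5 lowest and 5 highest ratios of a class and each member in its highest class. Thinning to 2000 UMIs used seed 0. The automatic threshold of Scrublet marked 0 barcodes in either library, so it did not work and no doublets were removed, except the 6% with the highest scores in an alternative. Free RNA was not removed. The members, lists and alternatives were chosen with earlier results of these data known.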

Additional observations from a re-analysis of the deposited data

How the results depend on the processing

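No paired analysis was possible because each group has 1 library, and no library could be left out. The median log2 ratios of the enzymes and of the hypoxia genes stayed below 0 under every alternative in T cells (-0.36 to -0.28 and -0.43 to -0.19), in CD8 T cells that were not cycling (-0.51 to -0.26 and -0.72 to -0.40) and in monocytes (-0.25 to -0.15 and -0.25 to -0.07). In NK cells the enzymes ran from -0.69 to -0.20 and the hypoxia genes from -0.35 to 0.04. In mature migratory dendritic cells the enzymes ran from -0.19 to 0.08 and the hypoxia genes from -0.64 to -0.01. The marker thresholds tried first gave -0.69 in NK cells and -0.64 in mature migratory dendritic cells, the ends of these ranges, and were replaced after values had been seen. Of 714 alternative values of named genes, 682 kept their sign, and 78 of the 99 log2 ratios kept it under every alternative. The named genes are mainly the extremes of their class, and most alternatives reuse the same counts, so a kept sign is no independent reading. Pfkfb4 in monocytes reversed to -0.25 after thinning, and the cause was not tested. In mature migratory dendritic cells Ero1l kept its sign but ran from -1.27 to -0.17, and Pfkfb3 ran from -0.54 to 1.32.

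With a threshold of 1.5-fold, the members lower and higher, with the shares of all genes past it, were 4 and 0 in T cells (9.44% and 6.91%), 7 and 0 in CD8 T cells that were not cycling (12.8% and 10.3%), 4 and 1 in cycling T cells (10.5% and 8.78%), 6 and 1 in NK cells (11.3% and 12%), 5 and 0 in mature migratory dendritic cells (14.1% and 11.1%), 2 and 1 in monocytes (8.58% and 4%), 0 and 2 in macrophages (4.44% and 4.3%), and 0 and 1 in Ptprc-low cells (3.53% and 3.95%). Counts at the main threshold moved in some of the alternatives added after seeing the data. The thresholds tried first gave 0 higher in T cells, 2 higher in CD8 T cells, 11 lower in mature migratory dendritic cells and 1 higher in monocytes. Stricter markers gave 4 higher in T cells and 3 higher in CD8 T cells. Thinning gave 0 higher in T cells, 6 lower in cycling T cells, 0 higher in NK cells and 1 lower in macrophages. Median-of-ratios scaling shifted every log2 ratio by 0.03 to 0.08.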

Other observations

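Levels in the small dendritic cell classes belong to no comparison above. Vegfa in cDC2 was at 365 CPM in the control library (exact Poisson 95% interval 257 to 504, on 37 UMIs) and 89.8 CPM in the sitagliptin library (58.1 to 133, on 25 UMIs), from 27 and 48 barcodes. At equal depth the hypoxia gene UMIs per cDC2 had a variance over mean of 5.45 and 2.06. That is wider than Poisson counting, so these intervals can be too narrow. The 10 macrophage markers summed to 711 and 485 CPM in cDC2, with 4 higher and 6 lower, and their part was not tested. Hk2 in cDC2 was at 79.0 CPM (34.1 to 156) and 129 CPM (90.6 to 179), above its level in macrophages of the same library, although the control interval reaches below it.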
